A study of Homo sapiens with 12 samples.

Results

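The m6A peaks on transcripts of the ZNF genes were examined across the 4 peak lists of this MeRIP-seq series, together with the mRNA level of the same genes. A peak was taken as a ZNF peak where the gene symbol in the list was ZNF followed by digits. This gave 667 of the 14586 peaks, on 262 of the 6163 genes that had any peak. Of these 667 peaks, 198 were in the HSC3 control list, 189 in the HSC3 rapamycin list, 162 in the CAL33 control list and 118 in the CAL33 rapamycin list. They made up 5.04%, 4.78%, 4.47% and 3.83% of those lists. In all, 656 of the peaks lay on 255 protein-coding genes, and 11 lay on 7 antisense RNAs or pseudogenes.

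HSC3 and CAL33 are established human oral squamous cell carcinoma (OSCC) lines. For MeRIP-seq each was kept with or without 100 nM rapamycin, an inhibitor of the kinase mTOR that induces autophagy, for 3 days. The RNA-seq labels give the same dose and no duration. In MeRIP-seq, an anti-m6A antibody enriches RNA fragments that carry the mark, and these are sequenced beside the input. A total of 8 libraries gave 1 pair of pulled-down and input RNA, and so 1 peak list, for each line and treatment, so no m6A value had a replicate within a line. RNA-seq comprised 4 libraries, numbered 1 and 2 in each of the rapamycin and control groups. In the MeRIP-seq labels HSC3 has the number 1 and CAL33 the number 2, but by the labels of the RNA-seq samples HSC3 gave the rapamycin libraries and CAL33 the controls, so treatment and line cannot be told apart from the RNA-seq labels and the line of each RNA-seq library was not assigned here. No source used here says whether the RNA-seq libraries came from separate cultures, so their p-values measure only the spread between these samples.

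RNA-seq depth ranged from 18492273 to 23763098 counts per library, and the depth of the MeRIP-seq libraries is unknown. Of 9 markers of squamous epithelium, 7 were above 1 CPM, the read count of a gene scaled to library size, in every library, with summed levels of 1356 to 5639 CPM. KRT14, a basal keratin, was at 0 CPM in both libraries numbered 1. The 4 leukocyte markers summed to at most 0.32 CPM. The 3 endothelial markers summed to 1.42 and 1.71 CPM in the libraries numbered 1 and to 45.4 and 30.8 CPM in those numbered 2. CDH5 gave 41.6 and 25.6 CPM of the latter. The 4 fibroblast markers summed to between 8.79 and 44.1 CPM, with COL1A2 and DCN at 0 in every library. COL1A1 had 8.79 to 29.3 CPM, and PDGFRB 14.8 and 10.3 CPM in rapamycin and control libraries 1 and 0 in those numbered 2. In bulk RNA, fewer cells with a transcript and less of it per cell cannot be told apart.

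ZNF genes encode C2H2 zinc finger proteins, the largest family of human DNA-binding factors. Many carry a KRAB domain that recruits the corepressor TRIM28 and, through it, the histone methyltransferase SETDB1, and are known for silencing transposable elements. Much of the family lies in clusters on chromosome 19, and the finger array of a typical member is encoded in 1 long last exon. m6A is deposited on mRNA by a complex of METTL3 and METTL14, mostly at adenosines that follow a pair of G and precede C, and is known to be densest in long internal exons and around stop codons.

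ZNF peaks ranged from 120 to 689 bp, with a median of 210 bp, and lay on 21 chromosomes. Chromosome 19 held 240 of them (36.0%) on 115 genes, against 5.81% of all other peaks, and chromosome 16 followed with 73 peaks on 25 genes. Coordinates are hg38, counted from 1. Some entries describe the same stretch more than once. In the same list, 26 ZNF peaks overlapped another peak of the same gene and 45 overlapped a peak assigned to another gene, such as the ZNF276 peaks that coincided with peaks of its neighbour FANCA in every list, so the gene of origin of these peaks is uncertain.

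Of the ZNF peaks, 2 reached into the window from 250 bases before to 50 bases after the gene start given by RefSeq (GRCh38.p14, 647 windows of ZNF genes), and both were searched for the m6A core GGAC. The sequence at ZNF503 is shown because it held this core. The peak of ZNF503 on chr10:75401607-75401787, minus strand, was called as 5′ UTR in the CAL33 rapamycin list with a fold enrichment of 158, and overlapped 73 bases of the window. The first 30 transcribed bases, chr10:75401735-75401764, are given 5′ to 3′ with GGAC in capitals, which begins at base 13 from the start.
ZNF503: agagccccggctGGACacgcagcggctcgc
GGAC was present in the first 30 transcribed bases of 11.0% of all 35116 windows and of 12.98% of those of ZNF genes, and GGAC or its reverse complement GTCC in 20.3% of all windows. The 5′ UTR peak of ZNF263 in the same list, with a fold enrichment of 104, overlapped 98 bases that lie before the RefSeq start, and these held neither GGAC nor GTCC. The sequences under the other ZNF peaks were not analysed here.

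The lists assign each peak 1 class, and ZNF peaks were more often in coding sequence (CDS) and less often in the 3′ UTR than the peaks of all other genes. The CDS share of ZNF peaks was 54.5% in the HSC3 control list (Wilson 95% interval 47.6 to 61.3%), 53.4% in the HSC3 rapamycin list, 61.1% in the CAL33 control list and 49.2% in the CAL33 rapamycin list. For other peaks it was 40.6%, 40.8%, 41.8% and 40.7%. The CDS share was higher for ZNF peaks in 4 of 4 lists, by 13.6 ± 4.48 percentage points (SD, n = 4 lists). The 3′ UTR share was 28.8%, 24.3%, 21.0% and 24.6% for ZNF peaks against 35.7%, 36.3%, 37.8% and 37.7% for other peaks, lower in 4 of 4 lists by a mean of 12.2 points (SD 4.08). The intervals, which cover counting error only and treat overlapping peaks as separate, did not overlap between ZNF and other peaks for CDS in the first 3 lists, and did in the CAL33 rapamycin list (40.3 to 58.1% against 38.9 to 42.5%).

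**Figure D1:**
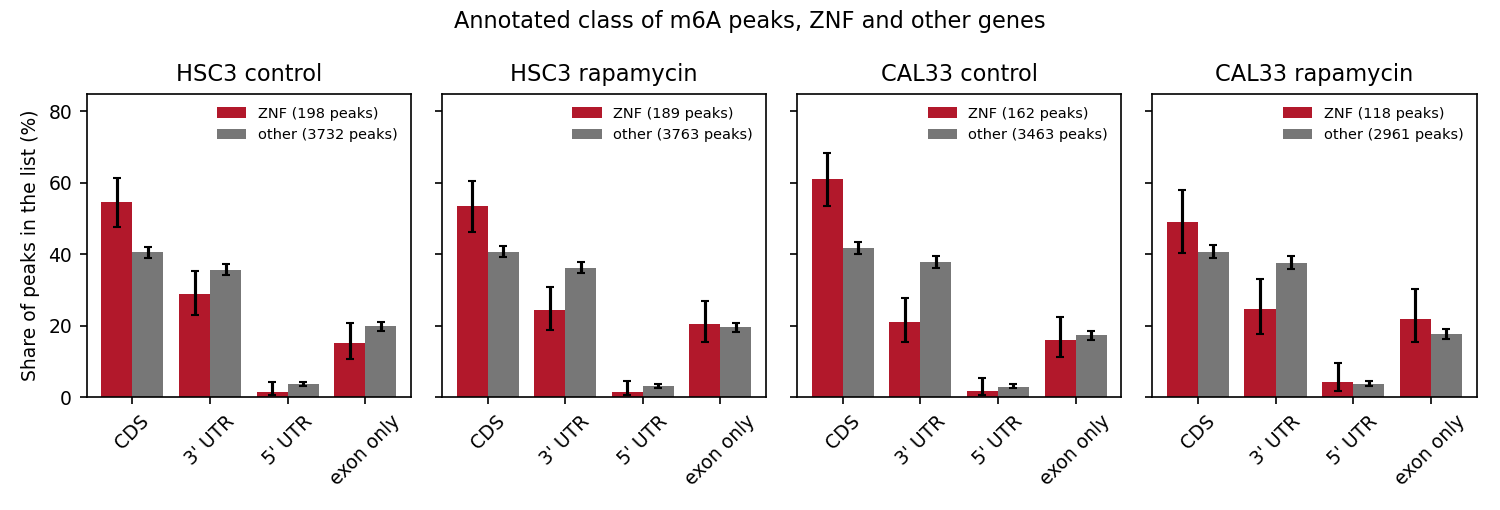
Share of peaks (%) by annotated class in each of the 4 lists, for ZNF genes (red) and all other genes (grey), with Wilson 95% intervals. The CDS bar of ZNF peaks stands above that of other peaks in every list (49.2 to 61.1% against 40.6 to 41.8%), and the 3′ UTR bar below it.

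In the 5′ UTR lay 14 ZNF peaks over all lists (2.099% against 3.41% of other peaks), and 121 carried only the class exon (18.1% against 18.7%). The exon-only share differed from that of other peaks by -0.14 ± 3.85 points, without a common direction. Neither did ZNF peaks lie closer to the gene's end: between 51.3% and 57.7% of them, and 57.3 to 57.9% of other peaks, were in the last 20% of the genomic span of the gene. An exact two-sided sign-flip test over 4 lists cannot go below p = 0.13, and the CDS and 3′ UTR shares each gave that p (0.225 after adjustment over 9 measures), so no difference between ZNF and other peaks could pass 0.05 in this design. Among peaks on tested genes under 32 CPM, a limit chosen after seeing the data, the CDS difference was 16.5 points.

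The class of the strongest recurring peaks followed no single pattern. Recurring peaks, those that overlapped a peak of any other list, were ordered by the lowest within-list percentile of fold enrichment over all the lists in which they were found. The CDS peaks with the highest such percentile were in ZNF644, a partner of the histone methyltransferases G9a and GLP, and in ZNF587. The ZNF644 peak (chr1:90940960-90941229, minus strand, in HSC3) had a fold enrichment of 112 in the HSC3 rapamycin list and 198 in the CAL33 rapamycin list. It overlapped no peak of either control list. The ZNF587 peak (chr19:57858723-57859143, plus strand, in CAL33) showed the opposite pattern, with 151 in the HSC3 control list and 332 in the CAL33 control list, and no overlapping peak with rapamycin; in both lists it also overlapped a peak of another annotated gene. In the 3′ UTR, the peak of ZNF652 (chr17:49298038-49298398, minus strand) stood at 488 in the HSC3 control list and 90.2 in the HSC3 rapamycin list, and the overlapping CAL33 control peak, at 162, was classed as CDS. The 3′ UTR peak of ZNF436 was found in both control lists, at 112 in HSC3 and 183 in CAL33. The recurring 5′ UTR peaks were weaker: those of ZNF217, an oncogene amplified in several carcinomas, had 39.3 in HSC3 control and 13.1 in CAL33 rapamycin, and those of ZNF664 had 7.25 and 7.23 in the CAL33 lists. The exon-only peak of ZNF592 (chr15:84802126-84802545, plus strand, in HSC3) was high in both control lists, at 589 and 375, and had 60.2 in HSC3 rapamycin. That of ZNF33A had 123 in HSC3 control and 74.5 in CAL33 control.

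A total of 15 ZNF genes had a peak in all 4 lists, 42 in 3, 86 in 2 and 119 in 1. Of the 262 genes, 100 had a single peak over all lists and 32 had at least 5. The highest number was on ZNF623, with 17 peaks, 12 of them exon-only, among which were several near-identical entries. It was followed by ZNF460 with 13 peaks, 9 of them in the 3′ UTR, by ZNF518A with 10, all exon-only, by ZNF609 with 10, of which 9 were in the CDS, and by ZNF217, one of several genes with 9. ZNF460 lies on chromosome 19, ZNF518A on chromosome 10, ZNF609 on chromosome 15 and ZNF217 on chromosome 20.

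Among the genes with a peak in every list, the one whose highest peak was strongest in its weakest list was ZNF316, with fold enrichments of 129 in HSC3 control, 180 in HSC3 rapamycin, 268 in CAL33 control and 113 in CAL33 rapamycin. These were not 1 peak: the HSC3 control peak (chr7:6653257-6653527) did not overlap the HSC3 rapamycin peak (chr7:6653617-6653797). ZNF146, a protein made almost wholly of zinc fingers, had 78.3, 56.6, 72.4 and 117 in the same order of lists, all in 1 stretch of the 3′ UTR (chr19:36237402-36238058, plus strand, over the lists). ZNF131, a BTB domain zinc finger protein, had 85.5, 90.2, 53.0 and 34.8, all in 1 stretch of CDS (chr5:43174706-43175336, plus strand). ZNF518A had 87.2, 84.6, 51.1 and 53.6, but the last was a separate peak that overlapped no CAL33 control peak. In the stretch of ZNF518A shared by all 4 lists, the CAL33 rapamycin peak had 18.8. The highest values of ZNF146, ZNF131 and ZNF518A lay within a few-fold of each other over the 4 lists, for ZNF518A not at 1 position.

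The other genes of this group varied more, in values of the highest peak of each list, which need not lie at 1 position. ZNF623 had 676 in HSC3 control and 48.1 in CAL33 rapamycin, ZNF800 between 33.6 and 164, ZNF263 between 26.6 and 221, and ZNF276 between 21.9 and 168. The ZNF623 peak of 676 overlapped no HSC3 rapamycin peak. ZNF460 had 95.3 and 99.3 in the control lists and 30.1 and 19.8 with rapamycin, so both control values were above both rapamycin values. ZNF548 had 252 and 179 in the control lists and 13.7 and 96.5 with rapamycin, in 1 overlapping stretch of CDS in every list. With 1 list per line and treatment, these differences had no replicate check.

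**Figure D2:**
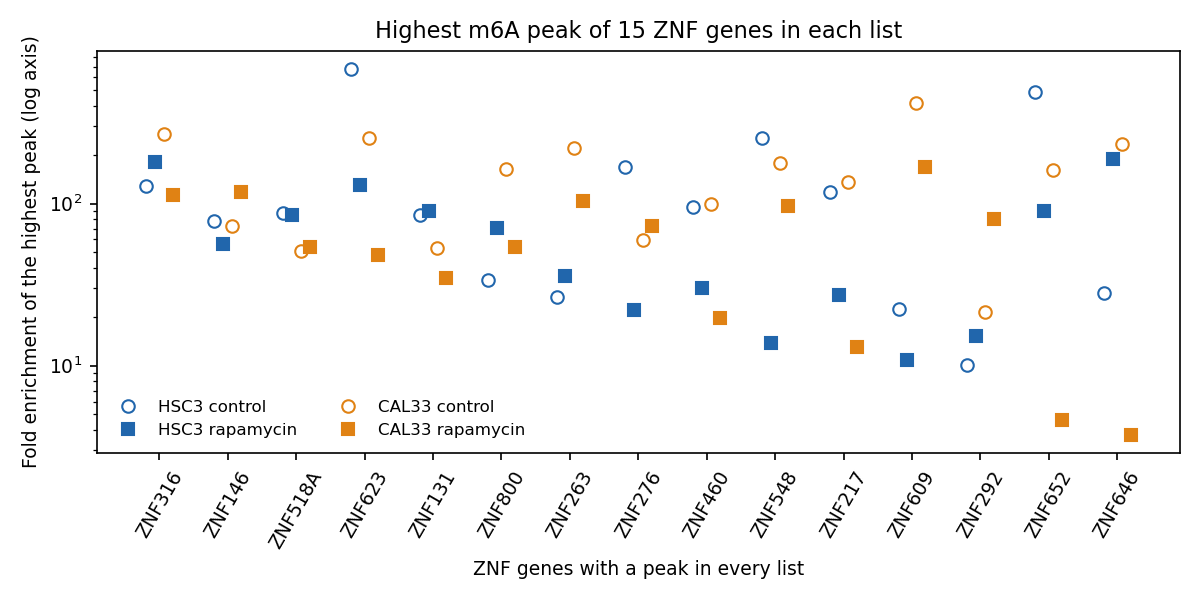
Fold enrichment (log axis) of the highest peak of each of the 15 ZNF genes with a peak in every list; blue is HSC3, orange is CAL33, open circles are control and filled squares rapamycin. The 4 values of ZNF146 (56.6 to 117) lie close together, while those of ZNF652 run from 4.59 to 488. The highest peaks of a gene need not lie at 1 position: the ZNF652 peak of 4.59, in CAL33 rapamycin, overlapped no CAL33 control peak.

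The position of 1 ZNF peak was less often shared between lists than that of other peaks. Over all lists, 400 ZNF peaks (59.97%) overlapped no peak of another list, against 50.7% of other peaks, and 27 (4.05%) overlapped a peak in every other list, against 8.82%. These 27 lay on 6 genes: ZNF146, ZNF131, ZNF518A, ZNF460, ZNF548 and ZNF623. The share of ZNF peaks that overlapped a peak of the other treatment in the same line was 22.2%, 23.3%, 17.3% and 25.4% in HSC3 control, HSC3 rapamycin, CAL33 control and CAL33 rapamycin, against 28.6%, 28.7%, 25.4% and 30.1% of other peaks. The mean difference over the lists was -6.13 points (SD 1.52). Each overlap in a line was counted from both of its lists (44 ZNF peaks in each HSC3 list, 28 and 30 in CAL33). The 4 values are therefore not independent, and no p-value is given. The share that overlapped a peak of the other line differed by a mean of -7.52 points (SD 3.01). It was again lower in 4 of 4 lists, with the same counting from both sides.

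ZNF peaks also lay on genes with a lower mRNA level. The gene of the median ZNF peak stood at 15.9 to 22.4 CPM over the lists, and that of the median other peak at 52.4 to 58.5 CPM. Among peaks on tested genes under 32 CPM, a limit chosen after seeing the data, the difference in sharing with the other treatment was -0.24 points. It was lower in 3 of 4 lists. Counted by genes in place of peaks, ZNF genes were shared 0.64 points more often than other genes. The part of mRNA level in the sharing was not tested.

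A peak without an overlapping peak in the other treatment of its line was called gained where it was in the rapamycin list and lost where it was in the control list. In HSC3, 145 of 189 ZNF peaks (76.7%) were gained and 154 of 198 (77.8%) were lost. In CAL33, 88 of 118 (74.6%) were gained and 134 of 162 (82.7%) were lost. Of all other peaks, 71.3% and 69.9% were gained and 71.4% and 74.6% were lost in HSC3 and CAL33. In both lines 21 ZNF genes had a gained peak and 42 had a lost peak, with 6 genes in both groups, among them ZNF316. The matching counts for other genes were not determined, so these gene counts have no background. In CAL33 the lost peaks came from 162 ZNF peaks and the gained ones from 118, so the 42 and 21 are not directly comparable.

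The gained peaks with the highest smaller fold enrichment over both lines were on ZNF644, with 112 in HSC3 and 198 in CAL33, on ZNF598, the ubiquitin ligase that marks collided ribosomes, with 115 and 99.1, and on ZNF316, with 180 and 99.1. ZNF598 had no peak in either control list and 5 exon-only peaks with rapamycin, 3 in HSC3 and 2 in CAL33, none of which overlapped between the lines. Its mRNA level was 127 and 153 CPM in rapamycin libraries 1 and 2 and 105 and 110.3 CPM in control libraries 1 and 2. The lost peaks with the highest values were on ZNF592, with 185 in HSC3 and 375 in CAL33, on ZNF398, with 163 and 179, and on ZNF587, with 151 and 332. For ZNF592 the positions differed: the CAL33 peak of 375 overlapped the HSC3 control peak of 589. That HSC3 peak was not lost, as it overlapped an HSC3 rapamycin peak of 60.2. ZNF398 had 5 peaks in the control lists and none with rapamycin. Where a ZNF peak was found in both treatments, its rank within the list rose in 24 and fell in 25 of 49 overlapping pairs in HSC3, and rose in 13 and fell in 18 of 31 pairs in CAL33. Among other peaks, 49.7% of pairs in HSC3 and 46.9% in CAL33 rose.

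Fold enrichment, the ratio of pulled-down to input RNA at a peak, had a median of 33.6, 43.7, 59.6 and 53.6 over ZNF peaks in HSC3 control, HSC3 rapamycin, CAL33 control and CAL33 rapamycin. Over other peaks the medians were 33.6, 32.8, 42.6 and 34.8. Expressed as the percentile within the list, the median ZNF peak stood 0.0, 8.46, 8.26 and 11.8 points above the median other peak, a mean of 7.13 ± 5.02 points (exact sign-flip p = 0.25). The direction depended on the measure of strength: ranked by p-value instead, the difference was -6.03 points, lower for ZNF peaks in 4 of 4 lists. Among genes under 32 CPM the difference in fold enrichment was 1.26 points. The single highest ZNF values, which were picked out after the values were seen, were 2030 for a CDS peak of ZNF48 in CAL33 control, 1200 for an exon-only peak of ZNF776 in HSC3 rapamycin and 976 for a 3′ UTR peak of ZNF12 in HSC3 control.

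A larger share of ZNF genes than of other genes carried a peak. The RNA-seq table held 512 protein-coding ZNF genes, of which 461 had any count and 412 had enough counts to be tested. Of the tested genes, 250 (60.7%) had a peak in at least 1 list, against 39.1% of 12491 other tested protein-coding genes. Of the ZNF genes with a peak, 4 were below the count filter. By list, 32.3%, 32.3%, 26.2% and 21.1% of tested ZNF genes and 19.6%, 19.5%, 18.4% and 16.1% of other genes had a peak, a difference of 9.59 ± 3.84 points, higher in 4 of 4 lists (exact sign-flip p = 0.13, the smallest possible). On chromosome 19, 59.1% of 186 tested ZNF genes had a peak against 34.8% of 765 other genes, and elsewhere 61.9% of 226 against 39.4%. The CAL33 rapamycin list was the exception on chromosome 19, with 14.5% of ZNF and 13.9% of other genes.

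The share was higher for ZNF genes at each mRNA level, although ZNF transcripts were less abundant. CPM counts reads per gene and is not divided by transcript length, so it orders genes by read number and not by molecules. The median of the mean level was 9.22 CPM for ZNF genes and 29.5 CPM for other genes. Between 8 and 16 CPM, 80 of 99 ZNF genes (80.8%) had a peak, against 33.7% of 1491 other genes. Below 2 CPM the shares were 24.5% and 10.8%, and at 64 CPM or more they were 78.9% and 52.0%.

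**Figure D3:**
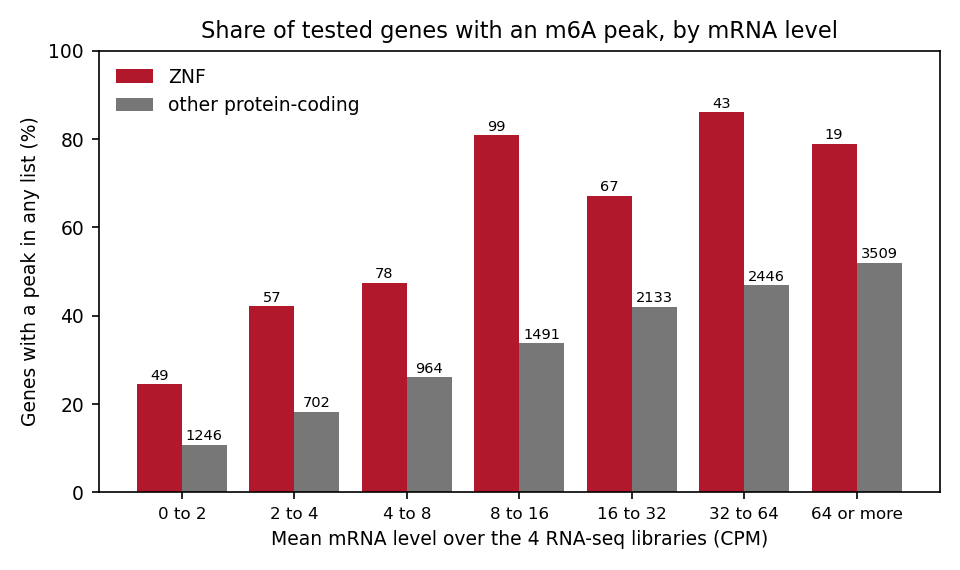
Share of tested protein-coding genes (%) with a peak in at least 1 list, by mean mRNA level (CPM), for ZNF genes (red) and other genes (grey); the number over each bar is the number of genes. ZNF bars are higher in all 7 level classes, with 80.8% against 33.7% from 8 to 16 CPM.

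Within the family, genes with a peak had more mRNA reads than genes without one. In rapamycin libraries 1 and 2 the median was 14.2 and 10.3 CPM over the 250 genes with a peak and 5.71 and 3.62 CPM over the 162 genes without. In control libraries 1 and 2 it was 14.5 and 12.04 CPM with a peak and 4.96 and 3.44 CPM without. The ratio of the medians was 2.94 ± 0.415 (SD, n = 4 libraries). The level rose with the number of lists: the median was 4.94 CPM with no list, 8.53 with 1, 13.6 with 2, 23.0 with 3 and 47.9 CPM with 4 lists. A peak is only called where there is enough input RNA, so level and peak detection cannot be told apart here.

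The 3 ZNF genes with the highest mRNA level and a peak were ZNF207, a microtubule-binding protein of the mitotic spindle, ZNF609 and ZNF664, with means of 202, 171 and 170 CPM. ZNF207 had only 1 peak, in the 3′ UTR with a fold enrichment of 6.38 in HSC3 rapamycin, while ZNF609 had 10. The highest without a peak were ZNF512B at 138 CPM, ZNF185, an actin-associated LIM protein despite its name, at 104 CPM, and ZNF740 at 72.0 CPM. ZNF512B had 70.3 and 37.6 CPM in rapamycin and control libraries 1, and 199.8 and 243 CPM in those numbered 2.

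The difference between libraries numbered 1 and 2 was large for the ZNF genes of chromosome 19, and it went with the line in which peaks were found. On a log2 scale with 0.5 CPM added, the median difference of number 1 minus number 2 was 0.62 over the 186 tested ZNF genes of chromosome 19, of which 146 (78.5%) were higher in number 1, and -0.03 over the 226 elsewhere. It was 0.29 over 765 other genes of chromosome 19. A difference of at least 3 was found for 45 ZNF genes, 36 of them on chromosome 19, which is 10.9% of tested ZNF genes against 3.89% of other genes, and 1 ZNF gene had a difference of at least 3 in the opposite direction. The difference between the numbers was not tested.

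Of these 45 genes, 22 had a peak, in the HSC3 lists for all 22 and in the CAL33 lists for 0. Of the 486 other protein-coding genes with such a difference, 112 had peaks in HSC3 lists only and 18 in CAL33 lists only. A further 30 had peaks in both lines and 326 had none. ZNF468 had 26.4 and 34.9 CPM in rapamycin and control libraries 1 and 0 in both numbered 2, with peaks in both HSC3 lists. ZNF331 had 38.5 and 20.1 CPM against 0 in both, also with peaks in both HSC3 lists. ZNF160 had 25.1 and 24.2 CPM against 0 in both, with a peak in HSC3 control. ZNF528 had 31.8 and 17.3 CPM against 0 in both, without a peak. These 4 are among the genes with the largest differences and were named after their values were seen.

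Over the family, ZNF genes with peaks in HSC3 lists only were mostly higher in number 1 (78 of 101, median difference 0.73). Those with peaks in CAL33 lists only were higher in number 1 for 20 of 49 genes, with a median of -0.24. Those with peaks in both lines stood between, at 0.10 over 100 genes. Among other protein-coding genes the medians were 0.21, -0.21 and -0.02. ZNF genes with no peak had a median of 0.28 over 162 genes, 106 of them higher in number 1. Other genes with no peak had a median of 0.01. The order by peak line is that of the MeRIP-seq numbering, in which 1 marks HSC3.

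**Figure D4:**
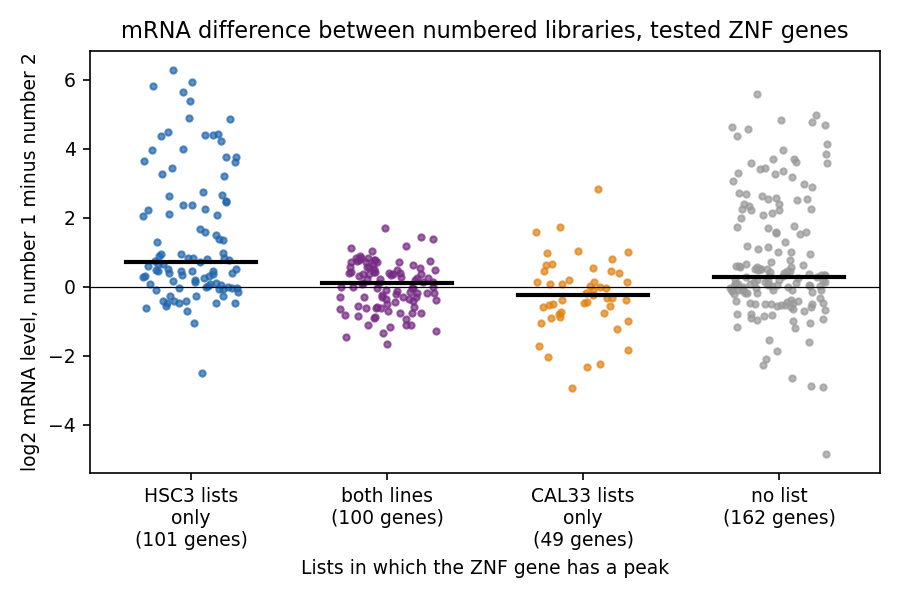
Difference in mRNA level between libraries numbered 1 and 2 (log2 of CPM with 0.5 added, mean of both treatments) for 412 tested ZNF genes, grouped by the lists that hold a peak; each point is a gene, the black line is the median and points are spread sideways for display. Differences above 3 occur with peaks in HSC3 lists only (22 genes) or with no peak (23 genes), and in neither of the groups with a CAL33 peak.

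With rapamycin, no ZNF gene changed by edgeR's quasi-likelihood test without a block (0 of 412 at an adjusted p under 0.05, with 4 at an unadjusted p under 0.05). Over all 15826 genes the same test called 0 in either direction (percentage called 0), and 446 had an unadjusted p under 0.05. DESeq2, also without a block, called 0 ZNF genes and 36 of the 10610 genes to which it gave an adjusted p (0.339%). With the replicate number as a block, 4 ZNF genes rose and 7 fell. That is 0.971% and 1.70% of tested ZNF genes, against 4.65% of all genes that rose and 3.5% that fell. The shares of ZNF genes called were below those of all genes in both directions. ZNF genes also had fewer reads, with a median of 9.22 CPM against 29.5 CPM for other protein-coding genes. Shares at a like mRNA level were not determined.

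Of the 250 ZNF genes with a peak, 1 rose (0.4%) and 6 fell (2.4%) with the block. Of the 162 without, 3 rose (1.85%) and 1 fell (0.617%). Among other protein-coding genes, 5.22% rose and 5.12% fell with a peak, and 4.60% and 3.54% without. ZNF488 had 4.63 and 16.3 CPM in rapamycin libraries 1 and 2 and 14.6 and 48.6 CPM in control libraries 1 and 2, lower with rapamycin within each number although the groups overlapped. Its log2 fold change was -1.61 ± 0.33 (SE, adjusted p = 0.00448 with the block and 0.9997 without), and its only peak, in the 3′ UTR (chr10:47367557-47367766), was gained in CAL33 with a fold enrichment of 161. ZNF668 had 10.04 and 5.92 CPM with rapamycin and 27.5 and 19.01 CPM in control, so the groups did not overlap, and fell by 1.57 on the log2 scale with the block. Its CDS peaks were in the CAL33 lists, at 12.8 in control and 88.4 with rapamycin, at positions that did not overlap. ZNF587B, whose sequence is close to that of ZNF587 so that reads may be split between them, had 12.3 and 3.46 CPM with rapamycin and 24.3 and 10.2 CPM in control.

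ZNF335, a transcription factor mutated in microcephaly, had no peak. It had 60.8 and 39.9 CPM with rapamycin and 90.7 and 93.1 CPM in control, and its log2 fold change was -0.90 ± 0.27. ZNF207 fell as well, from 267 and 256 CPM in control to 161 and 126 CPM with rapamycin, and so did ZNF787, from 80.4 and 51.8 to 40.7 and 30.1 CPM. ZNF114 was the seventh gene called as lower, but its change lay in 1 pair: it had 20.1 CPM with rapamycin and 124 CPM in control in the libraries numbered 1, and 0.219 and 0.084 CPM in those numbered 2. ZNF207, ZNF787 and ZNF114 are named here to complete the 7 calls.

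Of the genes that rose with the block, only ZNF469, which is mutated in brittle cornea syndrome, had a peak. It had 20.9 and 1.75 CPM with rapamycin and 3.37 and 0.887 CPM in control. Its CDS peaks were in the HSC3 lists, at up to 78.5 in control and 118 with rapamycin, at positions that did not overlap. The rapamycin peak that overlapped the control peak of 78.5 had 43.7. ZNF385C had 5.52 and 3.84 CPM with rapamycin and 1.15 and 0.422 CPM in control, with the largest rise (log2 fold change 2.67 ± 0.60). ZNF516 had 32.4 and 50.7 CPM against 14.5 and 16.5 CPM, and ZNF862 had 7.73 and 29.5 CPM against 3.69 and 9.17 CPM. The rapamycin and control values of ZNF385C and ZNF516 did not overlap.

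**Figure D5:**
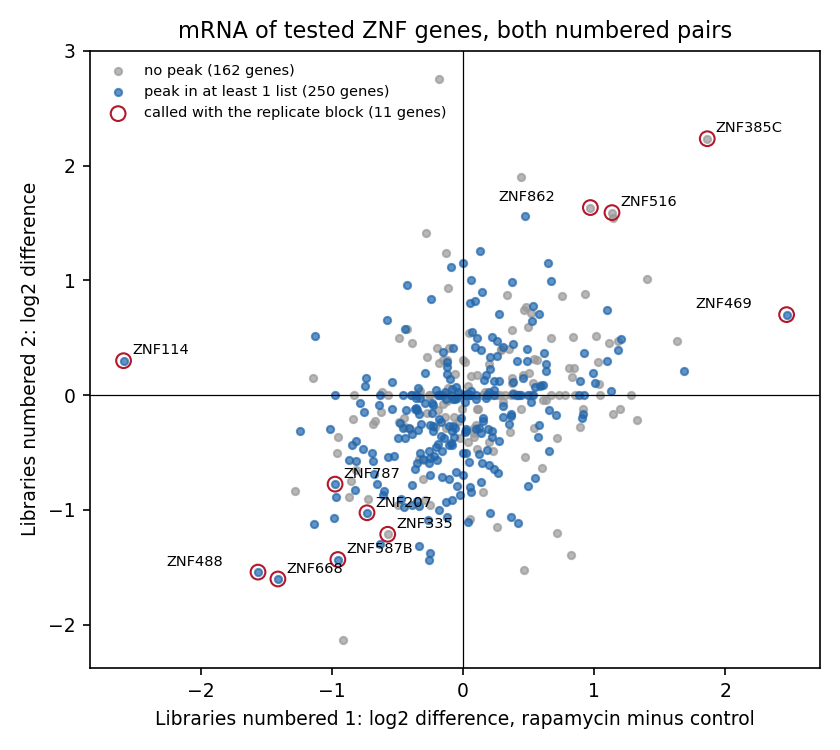
Log2 difference in mRNA level, rapamycin minus control (CPM with 0.5 added), in the libraries numbered 1 (horizontal) and 2 (vertical), for 250 ZNF genes with a peak (blue) and 162 without (grey). Circles mark the 11 genes called with the replicate block; 10 of them lie in the same direction in both pairs, and ZNF114 is lower in the pair numbered 1 alone.

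The median log2 fold change was -0.16 over ZNF genes with a peak and 0.12 over those without, a difference of -0.28. Over all genes tested the median was 0.06, and over other protein-coding genes it was -0.07 with a peak and 0.07 without. Of the ZNF genes with a peak, 101 (40.4%) were lower with rapamycin in both numbered pairs and 56 (22.4%) higher in both, against 34 (21.0%) and 46 (28.4%) of those without. A gene at 0 CPM in both libraries numbered 2 had a difference of 0 there and counted in neither direction. The median difference in number 2 was 0.0 over ZNF genes without a peak and -0.14 with one. The shares of these groups are therefore not directly comparable. Of other protein-coding genes with a peak, 39.4% were lower and 29.6% higher in both pairs, and of those without, 31.6% and 35.5%, so the share of lower genes among ZNF genes with a peak was close to that among other genes with a peak. Within the numbered pairs, the median difference of ZNF genes with a peak minus that of genes without was -0.19 in number 1 and -0.14 in number 2. In the fit without a block, the difference between the medians was -0.02 without rapamycin replicate 1 and -0.03 without control replicate 2, settings that leave the numbers unequal between the groups.

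Of the 21 genes listed as cofactors of KRAB zinc finger proteins, 11 had a peak, and 0 were called without the block. Among other tested protein-coding genes, 39.1% had a peak, and 52.0% of those at 64 CPM or more. With the block 4 cofactors fell and none rose, against 3.5% and 4.65% of all genes. TRIM28, the corepressor that KRAB domains bind, had 617 and 297 CPM with rapamycin and 1119 and 787 CPM in control, without overlap of the groups, and its log2 fold change was -1.13 ± 0.27 (adjusted p = 0.00954 with the block). The other 3 were TASOR, a subunit of the HUSH silencing complex, the DNA methyltransferase DNMT1 and the histone demethylase KDM1A, with log2 fold changes of -0.90, -0.91 and -0.90. The median over the list was -0.34 with the block, against 0.05 over all genes. TRIM28 had a single peak, in CAL33 rapamycin with a fold enrichment of 14.5. SETDB1 had peaks in HSC3 alone, at 179 in control and 27.3 with rapamycin, and log2 fold change 0.26 ± 0.28. ATRX was the only cofactor with a peak in every list, 6 in all.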

How the data were processed

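The authors deposited unnormalized counts of reads on each gene and 1 peak list per line and treatment. The deposited lists give a fold enrichment (a ratio of pulled-down RNA to input), log10 p-values and false discovery rates (negative numbers), and a score that repeats the p-value. The submitters' processing notes name hg38, cutadapt 2.5, HISAT2 2.1.0, featureCounts 1.6.3 and HOMER 4.10.4 without roles, and neither the peak caller's settings nor strand use in counting is given in the sources used here. The lists held peaks above a false discovery rate of 0.05. In HSC3 control and rapamycin these were 20.7% and 11.6% of ZNF peaks, against 13.9% and 8.88% of other peaks. In CAL33 control and rapamycin they were 6.17% and 9.32%, against 6.27% and 8.31%. They were kept in all counts, gained and lost peaks among them, except where a stricter rate is named. Without them, the difference in the share of genes with a peak was 8.10 points.

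Counts were filtered by filterByExpr, normalized by TMM and tested with edgeR 4.0.16 (quasi-likelihood test, Benjamini-Hochberg adjustment at 0.05) in R 4.3.3, without and with the replicate number as a block, and with DESeq2 1.42.0. The difference between numbers 1 and 2 in rapamycin correlated with that in control (r = 0.876 across genes, which are not independent replicates), and the pairing follows the numbering of the MeRIP-seq libraries. On simulated counts with 4-fold changes, 154 of 191 changed genes were called with the block (9 false calls, 15502 genes) and 0 without. These counts were drawn with means that differed between the numbers and with the spread of each gene from the blocked fit. The simulation was thus built on the block and cannot decide between the fits. Peaks shared a position where they overlapped by at least 1 bp on the same strand. Intervals are Wilson 95%.

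The members, the lists of cofactors and markers and the tests were chosen with earlier results of these data known. Named genes were the 10 with the highest smallest fold enrichment over the 4 lists, the 5 with most peaks, 2 recurring peaks per class, up to 4 rises and 4 falls per fit in the same direction in both pairs, the 3 most abundant with and without a peak, and 3 gained and 3 lost in both lines. The gene listed as HKR1 (now ZNF875) was counted with the other genes. Sequence was read only from the RefSeq windows around gene starts. Transcript lengths, proteins and other genome sequence were not used here.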

Additional observations from a re-analysis of the deposited data

Results flagged for a closer look

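The 3′ UTR share of ZNF peaks changed by -4.45 percentage points with rapamycin in HSC3 and by 3.59 points in CAL33. The median fold enrichment of ZNF peaks was 10.1 higher with rapamycin in HSC3 and changed by -6.0 in CAL33. The opposite directions hold on this scale only: as a percentile within the list, the median ZNF peak was higher with rapamycin by 7.85 points in HSC3 and by 3.59 points in CAL33, and the median fold enrichment of other peaks went from 33.6 to 32.8 in HSC3 and from 42.6 to 34.8 in CAL33. These were flagged because the lines moved in opposite directions. Each line had 1 list per treatment, and the difference between the lines was not tested. The 3′ UTR shares lay within each other's counting intervals in both lines.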

How the results depend on the processing

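With the replicate block, 11 ZNF genes were called in place of 0. DESeq2, upper-quartile normalization and other count filters, all fitted without the block, gave 0. The edgeR fit without the block called 0 of 191 4-fold changes in counts simulated from the blocked fit, a setting that favours the block. How firm the 11 calls are was not settled by these settings or by the simulation. The difference in median log2 fold change between ZNF genes with and without a peak (-0.28) was -0.39 with no filter on low counts and -0.24 with at least 10 counts in every library, and ranged from -0.46 (without control replicate 1) to -0.0207 (without rapamycin replicate 1) when 1 library was left out; it was -0.28 with the block. The log2 ratio of median levels (1.54) was 2.38 over all ZNF genes with any count, a set that adds low genes. The percentile difference in fold enrichment (7.13) was -6.03 by p-value and 1.26 on genes under 32 CPM, and that in sharing (-6.13) was 0.64 by genes and -0.24 on genes under 32 CPM; the cause was not tested. The difference in the share of genes with a peak (9.59 points) was 17.8 among genes of at least 8 CPM. The alternatives on genes under 32 CPM and of at least 8 CPM, and leaving out each list in turn, were chosen after seeing the data. The CDS difference kept its direction under stricter false discovery rates, a wider zinc finger family, 1 peak per gene and each list left out (11.7 to 15.3 points). The alternative of levels without division by length is the value given, since no length was used. The unknown depth of the MeRIP-seq libraries limits all peak values.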
